A study of Caenorhabditis elegans with 24 samples.

Results

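The genes described here are the glutathione transferases of Caenorhabditis elegans together with skn-1 and 4 genes that act beside it. They were all genes of both deposited count tables whose WormBase symbol is gst- followed by a number (44 genes), plus gcs-1, gsr-1, gsto-1, skn-1 and wdr-23, which makes 49 protein-coding genes of 46778 rows. RNA of whole adult animals was sequenced in 24 libraries, 3 for each of 8 groups. The study addressed what the loss of ceh-60, which encodes a PBX-type homeodomain protein, does to the transcriptome, at adult day 1 and day 4 and together with alleles of pqm-1, which encodes a zinc finger protein. Because the material is the whole animal, fewer cells of a type and less RNA per cell cannot be told apart.

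Wild type was strain N2, and the ceh-60(ok1485) mutant was strain DLS357. Both were sampled on adult day 1 and on adult day 4 and are held in the first table. The second table holds day 1 adults of 4 strains. They were pqm-1(ok485) in DLS421, pqm-1(rhd90) in DLS424, ceh-60(ok1485); pqm-1(ok485) in DLS420, called the ok485 double mutant below, and ceh-60(ok1485); pqm-1(rhd90) in DLS423, called the rhd90 double mutant. Each genotype is represented by 1 strain. Neither pqm-1 mutant shares a table with wild type, so table and pqm-1 genotype cannot be told apart wherever they are compared.

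Library totals ranged from 18809461 to 32598349 counts. Levels are given as CPM, which are counts scaled by library size with TMM factors over all 24 libraries. The mutated gene followed the labels. The mean ceh-60 level was 6.1 ± 0.69 CPM (SD, n = 3) in wild type on day 1 and 1.36 ± 0.43 CPM in the ceh-60 mutant, and it lay between 0.67 and 1.58 CPM in the 4 groups that carry ok1485. The pqm-1 transcript averaged 5.99 ± 0.26 CPM in pqm-1(ok485) and 14.9 ± 1.06 CPM in pqm-1(rhd90) against 10.8 ± 0.37 CPM in wild type, so its level does not check the rhd90 label.

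Glutathione transferases join the tripeptide glutathione to reactive or foreign compounds, which makes these more soluble and easier to remove. In C. elegans many of them are made in the intestine, and gst-4 is widely used as a reporter of SKN-1, the worm relative of the Nrf transcription factors. WDR-23 is the receptor of a CUL-4 and DDB-1 ubiquitin ligase that directs SKN-1 to degradation, so SKN-1 activity is known to be set largely at the level of the protein. GCS-1 is the catalytic subunit of glutamate-cysteine ligase, the rate-limiting step of glutathione synthesis, and GSR-1 returns oxidised glutathione to its reduced form.

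The 49 genes covered more than 4 orders of magnitude in level. Per kilobase of exon, gst-1, a pi-class transferase, came first with 315.6 FPKM (CPM divided by exon length in kilobases) over all groups, ahead of gst-7 with 289.2 FPKM. The level of gsr-1 was 135.6 FPKM, that of skn-1 was 85.7 FPKM, that of gst-27 was 61.95 FPKM and that of gcs-1 was 53.63 FPKM. In CPM, 5 members averaged at least 100, 17 lay between 5 and 100, 5 lay between 1 and 5, and 22 stayed under 1. Every member had at least 1 read in some library. In the whole-table tests, genes with few counts were left out, which kept 35 of the 49 members in the first table and 33 in the second and over day 1. Of the 35, 27 lay above the cutoff of 0.411 CPM in every library of the first table, and gst-12, gst-19, gst-21, gst-29, gst-30, gst-32, gst-33 and gst-35 passed through some groups only. In the second table gst-33 alone passed that way, and over day 1 gst-29, gst-33 and gst-35 did. A gene that passes only through groups where it is high was in part chosen for that difference. Each count below is therefore also given without these genes where that changes it. The 14 members that entered no test never exceeded 0.633 CPM in a library. The plot of levels per kilobase shows this order.

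**Figure D1:**
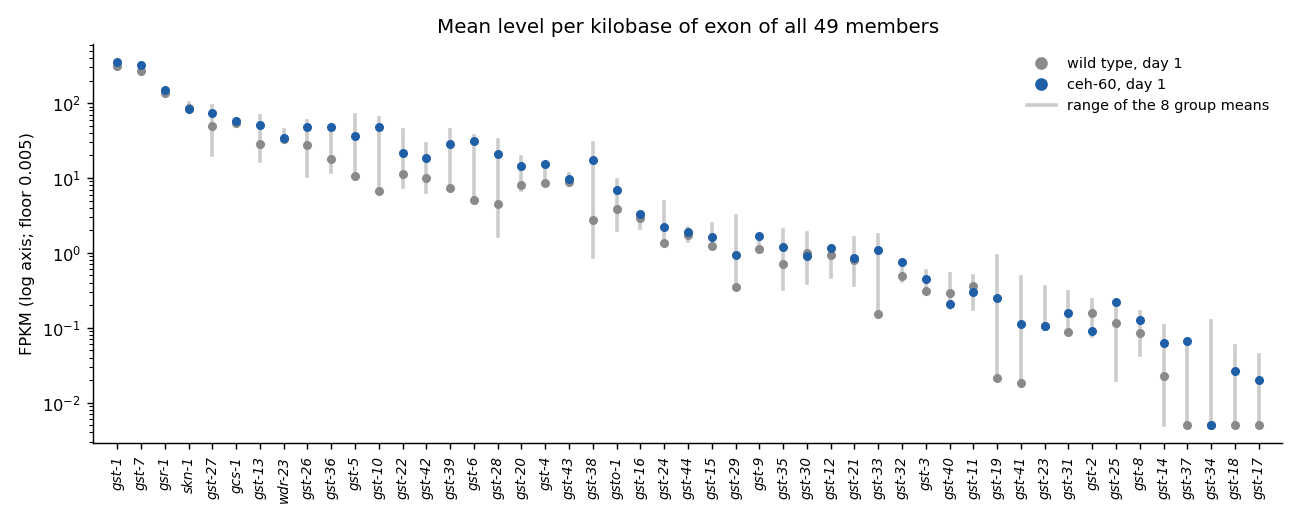
Mean level of all 49 members in FPKM on a log axis, ordered by the mean over all groups; grey points are wild type on day 1, blue points the ceh-60 mutant on day 1, and grey bars the range of the 8 group means. The blue points of gst-10, gst-6, gst-38, gst-28 and gst-39 lie well above the grey ones, while those of gst-1, skn-1, gcs-1 and wdr-23 lie beside them.

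Loss of ceh-60 on adult day 1 went with higher levels of many glutathione transferases. Of 35 members tested, 18 rose and none fell, and the other 17 did not pass (edgeR quasi-likelihood test, Benjamini-Hochberg adjusted over all genes, threshold 0.05). Without the 8 members that passed the filter through some groups only, 16 of 27 rose. Among all 13137 genes tested in the same fit, 16.1% were called higher and 9.46% lower, 25.5% in all. The median log2 fold change was 0.73 over the 35 members and -0.03 over all genes tested. The 44 gst genes together held 616.8 ± 11.8 CPM in wild type and 899.3 ± 54 CPM in the mutant, and without gst-1 and gst-7 these means were 171.0 and 387.1 CPM.

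The gene gst-10, whose product is known to conjugate the lipid peroxidation product 4-hydroxynonenal, showed the smallest p. It stood at 6.09, 4.64 and 4.67 CPM in the wild type libraries of day 1 and at 35.6, 30.8 and 43.9 CPM in those of the ceh-60 mutant. The groups did not come near each other, and the log2 fold change was 2.81 ± 0.17 (SE, n = 3 per group), or 7.03-fold, with an edgeR adjusted p of 1.23e-07. For gst-28 the wild type libraries held 4.09, 2.62 and 3.16 CPM and the mutant libraries 16.5, 13.4 and 15.2 CPM. This was a log2 fold change of 2.17 ± 0.14 (edgeR adjusted p = 2.25e-07). For gst-38 the values were 2.51, 2.32 and 1.89 CPM in wild type and 16, 11.2 and 14.5 CPM in the mutant, a change of 2.60 ± 0.17 on the log2 scale (edgeR adjusted p = 3.04e-07). For gst-39 they were 5.58, 5.19 and 4.63 CPM against 21.3, 20.2 and 18.9 CPM, or 1.94 ± 0.14 (edgeR adjusted p = 4.89e-07). All 3 mutant libraries of each of these genes lay above all 3 wild type libraries.

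Further transferases rose by smaller or similar amounts on day 1. The log2 fold change was 2.59 ± 0.20 for gst-6, 1.74 ± 0.19 for gst-5 and 1.40 ± 0.10 for gst-36. It was 0.91 ± 0.19 for gst-22, 0.86 ± 0.10 for gst-13, 0.85 ± 0.11 for gst-42, 0.76 ± 0.09 for gst-26 and 0.55 ± 0.09 for gst-27. GST-42 is a zeta-class enzyme that acts as maleylacetoacetate isomerase in tyrosine breakdown. The abundant gst-7 rose by 0.23 ± 0.04, from 202.8 ± 5.94 to 242.0 ± 5.25 CPM. Of the 18 calls, 4 were lost when 1 library was left out: gst-20 (0.81 ± 0.20) and gst-33 without ceh-60 replicate 1, with adjusted p of 0.0523 and 0.0606, gsto-1 without wild type replicate 2 or ceh-60 replicate 1, with adjusted p up to 0.0694, and gst-19 without wild type replicate 1 or 3 or ceh-60 replicate 1 or 2, with adjusted p up to 0.147. The wild type libraries of day 1 held a single read of gst-19, so no fold is given. In the first table gst-33 passed the filter through the ceh-60 libraries of day 1 alone, which held 1.25, 0.54 and 0.76 CPM beside 0.17, 0.00 and 0.19 CPM in wild type, so its call is not independent of the filter. About 11.9% of the exon bases of gst-36 overlap scav-5 on the other strand. The counts ignore strand and leave out reads that overlap several genes, so reads in the shared stretch are missing from the level of gst-36.

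**Figure D2:**
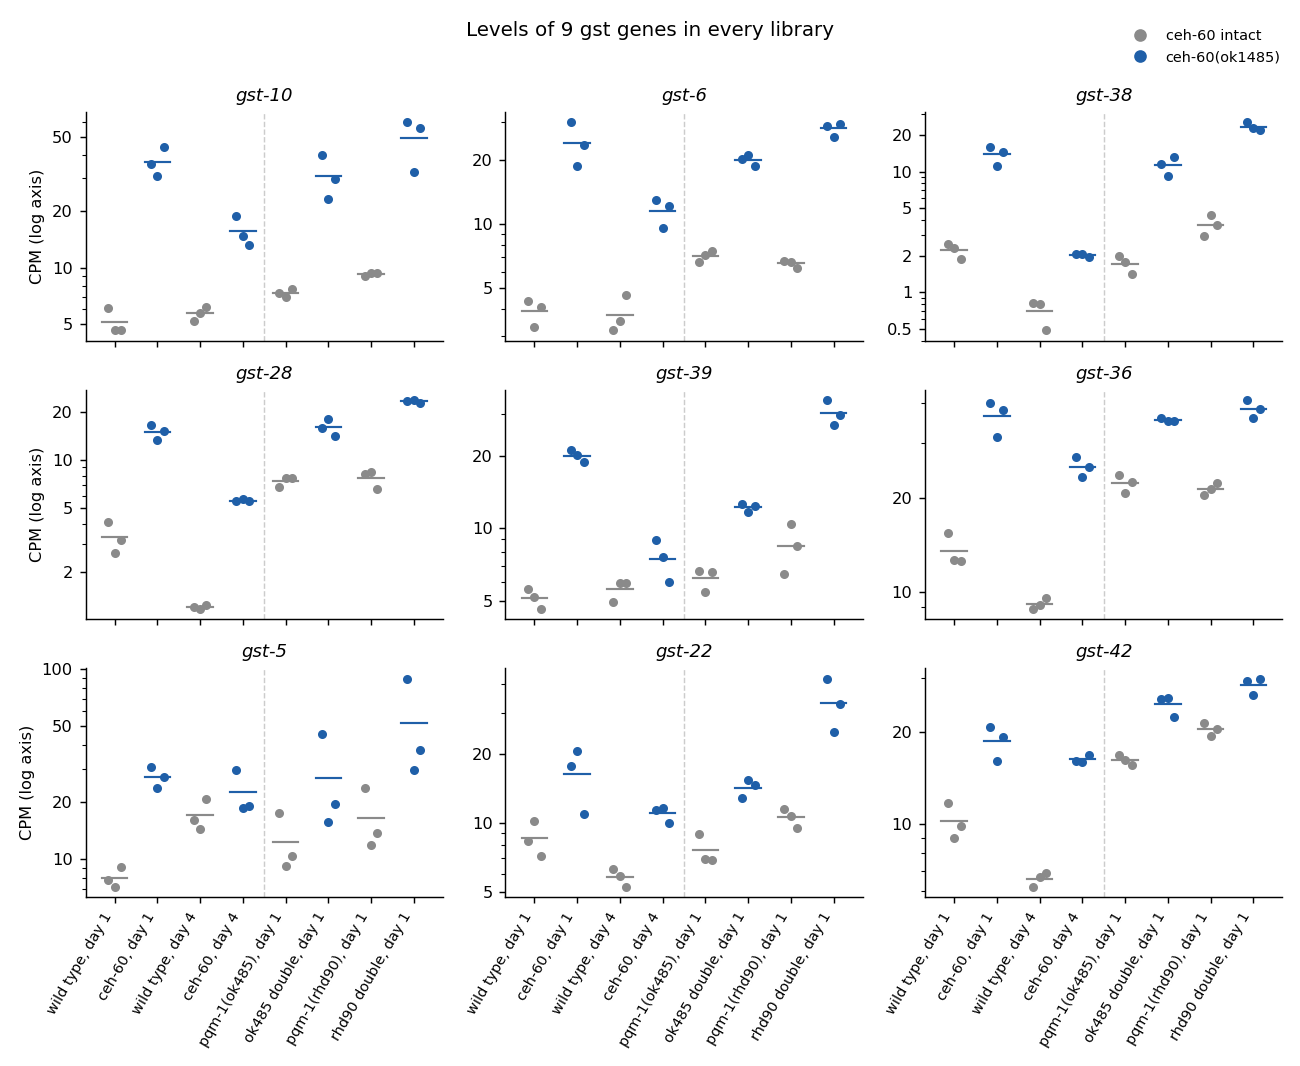
Level of 9 gst genes in every library, in CPM on a log axis, for the 8 groups; points are libraries, short lines group means, grey marks ceh-60 intact and blue ceh-60(ok1485), and the dashed line divides the tables. In every day 1 pair the blue points of gst-10, gst-6, gst-38, gst-28, gst-39 and gst-36 lie above the grey ones, and gst-5 has 1 high library in each group of the second table.

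The reporter gene gst-4 showed a moderate change. On day 1 it stood at 6.68, 7.38 and 6.84 CPM in wild type and at 10.6, 11.9 and 15.8 CPM in the ceh-60 mutant, with no overlap, and rose by 0.85 ± 0.19 (edgeR adjusted p = 0.00513). On day 4 the values were 5.81, 6.67 and 7.99 CPM against 13.4, 9.03 and 9.05 CPM, a log2 fold change of 0.65 ± 0.18 (edgeR adjusted p = 0.0216) that was lost without wild type replicate 1 or 2 or ceh-60 replicate 1 of day 4, with adjusted p up to 0.1. With pqm-1(ok485) the change was 0.51 ± 0.12 (edgeR adjusted p = 0.02), lost without replicate 1 or 2 of pqm-1(ok485) or replicate 1 or 3 of the ok485 double mutant, with adjusted p up to 0.0885. With pqm-1(rhd90) it was 0.41 ± 0.12 (edgeR adjusted p = 0.0403). This last call was lost without any of 9 of the 12 libraries of the second table, which were all 3 of pqm-1(rhd90), replicates 2 and 3 of pqm-1(ok485), and replicates 1 and 3 of each double mutant, with adjusted p up to 0.197. In each of the 4 settings all 3 libraries without ceh-60 lay above all 3 libraries with it.

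The omega-class gene gsto-1 stood at 3.53, 2.62 and 3.21 CPM in wild type and at 6.28, 4.95 and 5.58 CPM in the mutant on day 1, a log2 fold change of 0.82 ± 0.22 (edgeR adjusted p = 0.0153). On day 4 it stood at 0.97, 1.81 and 2.1 CPM against 3.48, 3.54 and 4.42 CPM, and rose by 1.25 ± 0.23 (edgeR adjusted p = 0.00151). In the second table its level was close to 6 CPM with ceh-60 intact and did not pass the test: 6.20, 6.01 and 5.77 CPM in pqm-1(ok485) against 6.56, 6.63 and 5.93 CPM in the ok485 double mutant, and 6.38, 5.83 and 6.34 CPM in pqm-1(rhd90) against 7.90, 6.45 and 7.99 CPM in the rhd90 double mutant. The log2 differences there were 0.06 ± 0.11 and 0.30 ± 0.11. About 6.2% of its exon bases overlap kle-2 on the other strand.

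The regulators skn-1 and wdr-23 and the glutathione enzyme genes gcs-1 and gsr-1 held nearly the same level with and without ceh-60. For skn-1 the wild type libraries of day 1 held 274.7, 282.9 and 280.5 CPM and the ceh-60 libraries 275.5, 283.9 and 272.8 CPM, which overlap. Its log2 fold change was -0.03 ± 0.04 on day 1 (edgeR adjusted p = 0.511), -0.04 ± 0.04 on day 4 (0.436), 0.07 ± 0.07 with pqm-1(ok485) (0.589) and -0.02 ± 0.07 with pqm-1(rhd90) (0.876). For wdr-23 the day 1 libraries held 70.5, 71.0 and 77.6 CPM in wild type and 74.9, 76.7 and 79.9 CPM in the mutant, and the 4 log2 fold changes lay between -0.06 ± 0.04 and 0.06 ± 0.05. None of these differences passed the test.

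For gcs-1 the day 1 libraries held 126.8, 124.7 and 125.0 CPM in wild type and 128.5, 140.3 and 129.7 CPM in the mutant. Its 4 log2 fold changes lay between -0.05 ± 0.04 and 0.12 ± 0.06. For gsr-1 they held 233.0, 247.4 and 242.2 CPM against 243.5, 272.6 and 258.3 CPM, and the changes lay between 0.08 ± 0.05 and 0.14 ± 0.05. The pi-class gene gst-1 changed by between 0.00 ± 0.05 and 0.13 ± 0.05. None of these 5 genes passed the test in any of the 4 settings. A missed threshold does not show that a level is the same.

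**Figure D3:**
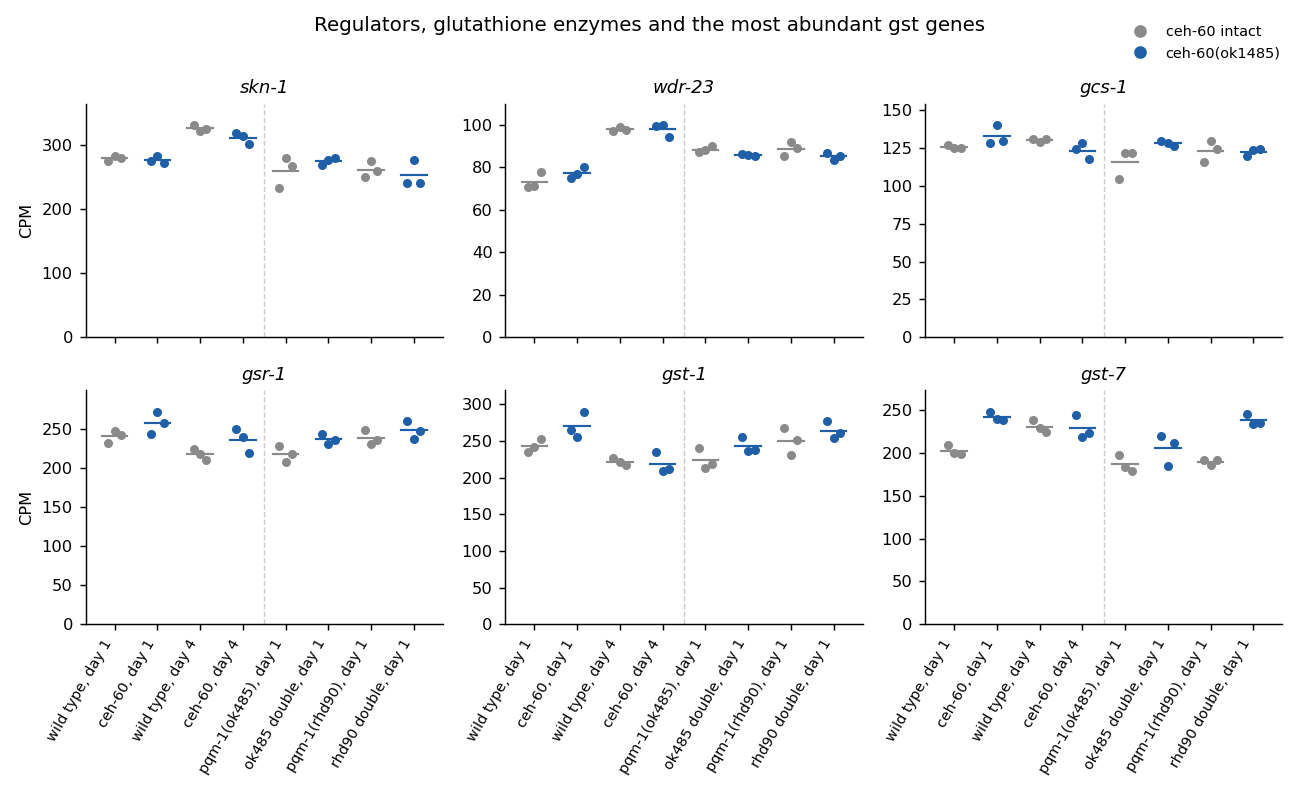
Level of skn-1, wdr-23, gcs-1, gsr-1, gst-1 and gst-7 in every library, in CPM on axes that start at 0, for the 8 groups; points are libraries and short lines group means, with grey for ceh-60 intact and blue for ceh-60(ok1485). The blue and grey points of skn-1, wdr-23, gcs-1, gsr-1 and gst-1 lie at similar heights within each pair, and gst-7 is higher in blue on day 1 and with pqm-1(rhd90).

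On adult day 4, 14 of 35 members were higher in the ceh-60 mutant than in wild type and none was lower, where 16.1% of all genes tested were called higher and 8.24% lower (24.4% in all). DESeq2 called 15 members, of which gst-29 was lower (-1.34, adjusted p = 0.0398). That gene passed the filter through some groups only, and held 0.85, 1.12 and 1.37 CPM in wild type on day 4. The mutant libraries of day 4 held 0.36, 0.37 and 0.59 CPM. By edgeR 1 member was also lower without the filter on low counts and in the fit on the compared groups only. Of all genes called, 66.2% were higher by edgeR and 54.7% by DESeq2. The member with the smallest p was gst-28, at 1.2, 1.18 and 1.25 CPM in wild type and 5.52, 5.69 and 5.56 CPM in the mutant, a log2 fold change of 2.23 ± 0.16 (edgeR adjusted p = 3.83e-07). For gst-36 the values were 8.87, 9.11 and 9.56 CPM against 27.0, 23.3 and 25.1 CPM, or 1.48 ± 0.11 (edgeR adjusted p = 4.7e-07). For gst-42 they were 6.20, 6.67 and 6.9 CPM against 16, 15.9 and 16.9 CPM, or 1.33 ± 0.11 (edgeR adjusted p = 1.88e-06). The groups did not overlap for any of the 3 genes. For gst-13 the values were 11.8, 14.1 and 12.8 CPM against 27.6, 25.8 and 26.2 CPM, or 1.06 ± 0.10 (edgeR adjusted p = 4.89e-06).

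Day 4 also brought gst-6 (1.65 ± 0.19), gst-38 (1.54 ± 0.22), gst-10 (1.48 ± 0.16), gst-20 (1.40 ± 0.19), gst-22 (0.95 ± 0.20), gst-26 (0.82 ± 0.10) and gst-27 (0.52 ± 0.10) past the threshold. The call of gst-39 (0.44 ± 0.14, edgeR adjusted p = 0.0342) was lost without any of the 3 wild type libraries of day 4 or ceh-60 replicate 1 or 2, with adjusted p up to 0.156. The 44 gst genes together held 575.7 ± 6.42 CPM in wild type and 671.7 ± 46.2 CPM in the mutant on day 4.

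An interaction term set the response to ceh-60 loss on day 4 against that on day 1. The response was smaller on day 4 for 3 of 35 members and larger for none, against 2.22% and 1.82% of all genes tested (4.04% in all). The count was 7 with DESeq2, 7 without the filter on low counts, 6 with the replicate number as a block, and 5 without wild type day 4 replicate 3 or ceh-60 day 1 replicate 2. For gst-39 the effect was smaller on day 4, with a difference of -1.5 ± 0.20 on the log2 scale (edgeR adjusted p = 0.000822): the mutant held 21.3, 20.2 and 18.9 CPM on day 1 and 8.93, 7.56 and 5.98 CPM on day 4, while wild type stayed between 4.63 and 5.93 CPM. For gst-10 the difference was -1.33 ± 0.23 (edgeR adjusted p = 0.00561), with mutant libraries at 18.9, 14.8 and 13.3 CPM on day 4 and wild type libraries at 5.19, 5.78 and 6.18 CPM. For gst-5 it was -1.31 ± 0.26 (edgeR adjusted p = 0.0139), and here wild type moved: from 7.75, 7.17 and 9.11 CPM on day 1 to 16, 14.4 and 20.9 CPM on day 4, beside 30.5, 23.7 and 27.2 CPM and 29.6, 18.7 and 19.1 CPM in the mutant. None of the 3 calls was lost when a library was left out.

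Between day 1 and day 4, more glutathione transferases fell than rose. Of 30 gst genes tested, 5 rose and 13 fell in wild type, and 2 rose and 17 fell in the ceh-60 mutant. Among the 35 members, 7 rose and 15 fell in wild type (62.9%). For all genes tested, 28.4% were called higher and 26.3% lower (54.8% in all). In the ceh-60 mutant 4 members rose and 17 fell (60%), beside 28.3% and 24.3% of all genes (52.6% in all). These shares of members called lay near those of all genes. Without the 8 members that passed the filter through some groups only, 5 of 27 rose and 12 fell in wild type, and 3 rose and 12 fell in the mutant. The median log2 fold change of the members was -0.15 in wild type and -0.52 in the mutant, beside 0.02 and 0.04 over all genes tested. The comparisons that involve day 4 share libraries with those on ceh-60 loss. Tissue markers moved with age too, in both directions. Of 8 intestine markers 6 fell in each genotype, while wild type had 1 higher and the mutant 2. All 4 muscle markers fell in each. Of 4 epidermis markers tested, wild type had 2 lower and 0 higher, and the mutant 3 lower and 1 higher. Each genotype had 3 of 6 germline markers higher and 2 lower. Each also had 2 of 6 oocyte and 2 of 4 neuron markers higher and none lower. Of 5 early embryo markers tested, 2 rose in each genotype, while wild type had 2 lower and the mutant 1. Of 2 sperm markers tested, wild type had 1 lower and the mutant 2. The muscle medians were -1.43 and -1.91 on the log2 scale, and the epidermis medians -1.11 and -1.74. The part of these shifts in the result was not tested.

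The falling members of wild type were led by 3 neighbours on chromosome II. For gst-26 the libraries held 22.4, 21 and 21.8 CPM on day 1 and 8.45, 9.11 and 7.91 CPM on day 4, a fall by 1.37 ± 0.10 (edgeR adjusted p = 1.08e-07). For gst-27 they held 39.9, 33.3 and 36.5 CPM and 14.8, 17.3 and 13.7 CPM, a fall by 1.27 ± 0.10 (edgeR adjusted p = 2.03e-07). For gst-28 the log2 fold change was -1.46 ± 0.17 (edgeR adjusted p = 7.46e-06), and for gst-38 it was -1.67 ± 0.22 (edgeR adjusted p = 2.64e-05). In the ceh-60 mutant the changes of the same 4 genes were -1.31 ± 0.09, -1.31 ± 0.09, -1.40 ± 0.13 and -2.73 ± 0.17. The day 1 and day 4 libraries of these genes did not overlap in either genotype.

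The regulators rose with age in both genotypes. The level of skn-1 in wild type went from 274.7, 282.9 and 280.5 CPM to 332.0, 322.1 and 325.8 CPM, a rise of 0.21 ± 0.04 on the log2 scale (edgeR adjusted p = 0.000336), and in the mutant it rose by 0.20 ± 0.04 (0.000527). The level of wdr-23 went from 70.5, 71.0 and 77.6 CPM to 96.8, 98.9 and 97.5 CPM in wild type, a rise of 0.40 ± 0.05 (edgeR adjusted p = 7.65e-06), and in the mutant it rose by 0.37 ± 0.05 (1.86e-05). Older libraries lay above younger ones throughout for both genes. Of the transferases, gst-24 rose by 1.25 ± 0.23 (edgeR adjusted p = 0.000434) in wild type and by 1.15 ± 0.21 (0.00054) in the mutant, and gst-5 rose by 1.07 ± 0.19 (edgeR adjusted p = 0.000407) in wild type, with -0.24 ± 0.18 (0.272) in the mutant. For gcs-1 the log2 fold changes with age were 0.04 ± 0.04 and -0.08 ± 0.04, neither past the threshold. For gst-4 they were -0.05 ± 0.19 and -0.25 ± 0.18, also not past it. The level of gsto-1 fell by 0.95 ± 0.24 in wild type (edgeR adjusted p = 0.00399) and differed by -0.52 ± 0.21 in the mutant (0.0534). That of gsr-1 fell by 0.16 ± 0.05 in wild type (edgeR adjusted p = 0.0229), a call lost without day 1 replicate 2 or 3 or day 4 replicate 3, with adjusted p up to 0.101, and differed by -0.09 ± 0.05 in the mutant (0.168).

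**Figure D4:**
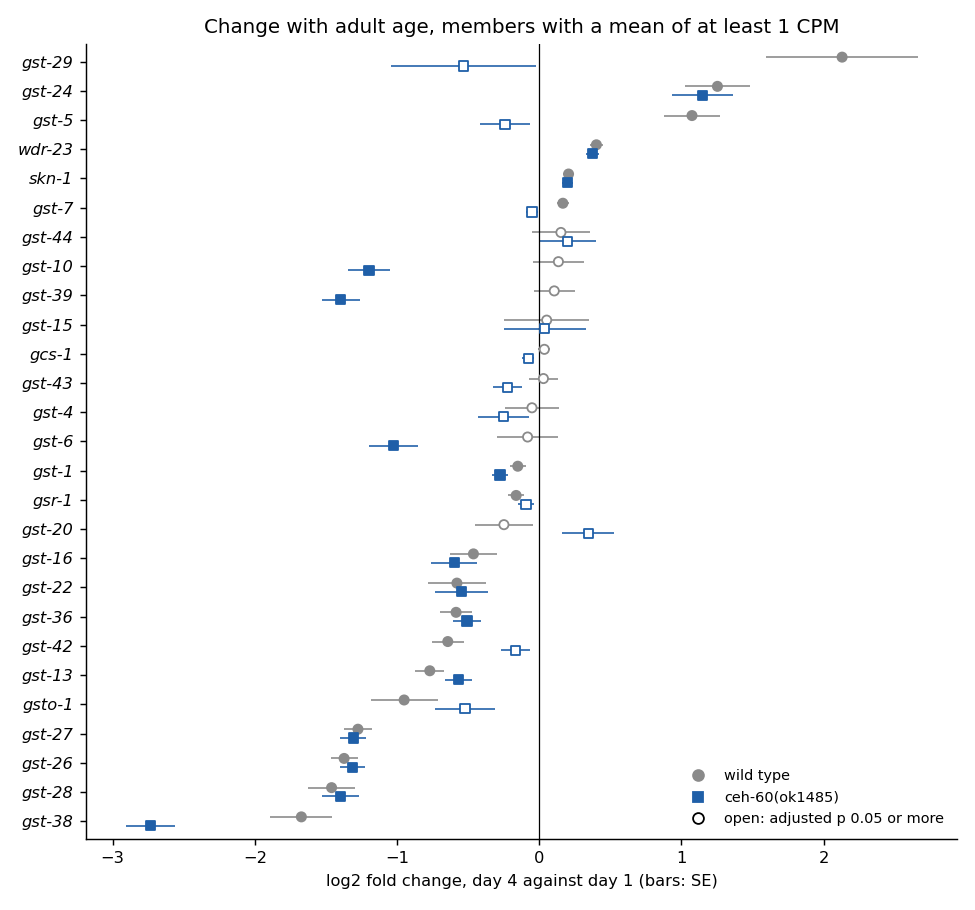
Log2 fold change from day 1 to day 4 with its SE for members that average at least 1 CPM, ordered by the value in wild type; grey circles are wild type, blue squares the ceh-60 mutant, and open symbols did not pass the test. Members gst-26, gst-27, gst-28 and gst-38 lie far to the left in both genotypes, while gst-10, gst-39 and gst-6 are near 0 in wild type and near or below -1 in the mutant.

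In animals that carry a pqm-1 allele, glutathione transferases were again higher without ceh-60. With pqm-1(ok485), 12 of 33 members tested rose and none fell, where 4.76% of all 13324 genes were called higher and 4.21% lower (8.97% in all). With pqm-1(rhd90), 16 of 33 rose and none fell, where 9.79% were higher and 2.07% lower (11.9% in all). Without gst-33 these counts were 12 and 15 of 32. The median log2 fold change of the members was 0.24 and 0.35, and that of all genes tested was -0.01 and 0.00. Each of the 4 comparisons uses its own control group, and 11 members were called higher in all 4: gst-4, gst-6, gst-10, gst-13, gst-20, gst-22, gst-28, gst-36, gst-38, gst-39 and gst-42. Of the 35 members tested in at least 1 of the 4, 16 passed in none and none was lower.

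The gene gst-6 had the smallest p with both alleles. It stood at 6.63, 7.21 and 7.53 CPM in pqm-1(ok485) and at 20.3, 21.1 and 18.7 CPM in the ok485 double mutant, a log2 fold change of 1.47 ± 0.09 (edgeR adjusted p = 4.51e-07). With pqm-1(rhd90) it stood at 6.75, 6.68 and 6.24 CPM against 29.0, 25.7 and 29.6 CPM, or 2.12 ± 0.09 (edgeR adjusted p = 1.79e-08). The libraries of each group lay close together and far from those of the other. For gst-38 the values were 2, 1.78 and 1.43 CPM against 11.5, 9.12 and 13.3 CPM with ok485, or 2.66 ± 0.18 (edgeR adjusted p = 1.71e-06), and 2.92, 4.40 and 3.63 CPM against 25.7, 22.9 and 22 CPM with rhd90, or 2.71 ± 0.17 (edgeR adjusted p = 5.93e-07). For gst-28 they were 6.80, 7.78 and 7.75 CPM against 15.8, 18.1 and 14.2 CPM with ok485, or 1.09 ± 0.11 (edgeR adjusted p = 3.86e-05), and 8.16, 8.37 and 6.61 CPM against 23.4, 23.7 and 22.9 CPM with rhd90, or 1.62 ± 0.11 (edgeR adjusted p = 1.12e-06). No group of gst-38 or gst-28 overlapped its control.

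With ok485, gst-36 stood at 23.7, 20.8 and 22.4 CPM against 36.1, 35.2 and 35.1 CPM in the double mutant, a log2 fold change of 0.65 ± 0.07 (edgeR adjusted p = 8.43e-05). With rhd90, gst-39 stood at 6.48, 10.4 and 8.42 CPM against 34.2, 26.9 and 29.9 CPM, or 1.87 ± 0.15 (edgeR adjusted p = 4.28e-06). The pi-class gene gst-10 rose by 2.06 ± 0.23 with ok485 and by 2.44 ± 0.23 with rhd90, and gst-22 rose by 0.87 ± 0.19 and 1.69 ± 0.18. The zeta-class gene gst-42 rose by 0.58 ± 0.08 and 0.51 ± 0.08. The call of gst-24 was lost in both settings when 1 library was left out: with ok485 (0.92 ± 0.24) without replicate 1 or 2 of pqm-1(ok485) or replicate 1 or 3 of the ok485 double mutant, with adjusted p up to 0.137, and with rhd90 (0.96 ± 0.25) without replicate 2 or 3 of pqm-1(rhd90) or replicate 1 or 2 of the rhd90 double mutant, with adjusted p up to 0.0944.

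The gene gst-5 was marked by library number in the second table. The libraries numbered 1, 2 and 3 held 17.5, 9.23 and 10.4 CPM in pqm-1(ok485), 45.4, 15.7 and 19.5 CPM in the ok485 double mutant, 23.8, 11.9 and 13.7 CPM in pqm-1(rhd90), and 89.2, 29.4 and 37.7 CPM in the rhd90 double mutant. Replicate 1 was the highest in each of the 4 groups. With ok485, where same-numbered libraries deviated together over all genes, the ratios within a number were 2.60, 1.70 and 1.87, and the fit with the number as a block gave a log2 fold change of 1.05 with an edgeR adjusted p of 2.05e-05, beside 1.07 and 0.218 without the block. With the block 14 members were called there, gst-5 and gst-33 in addition, and gst-33 had passed the filter only through groups where it is high. With rhd90 the change of gst-5 was 1.70 ± 0.48 (edgeR adjusted p = 0.0369) without a block, lost without pqm-1(ok485) replicate 3, pqm-1(rhd90) replicate 2 or 3, or replicate 1 of the rhd90 double mutant, with adjusted p up to 0.19.

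**Figure D5:**
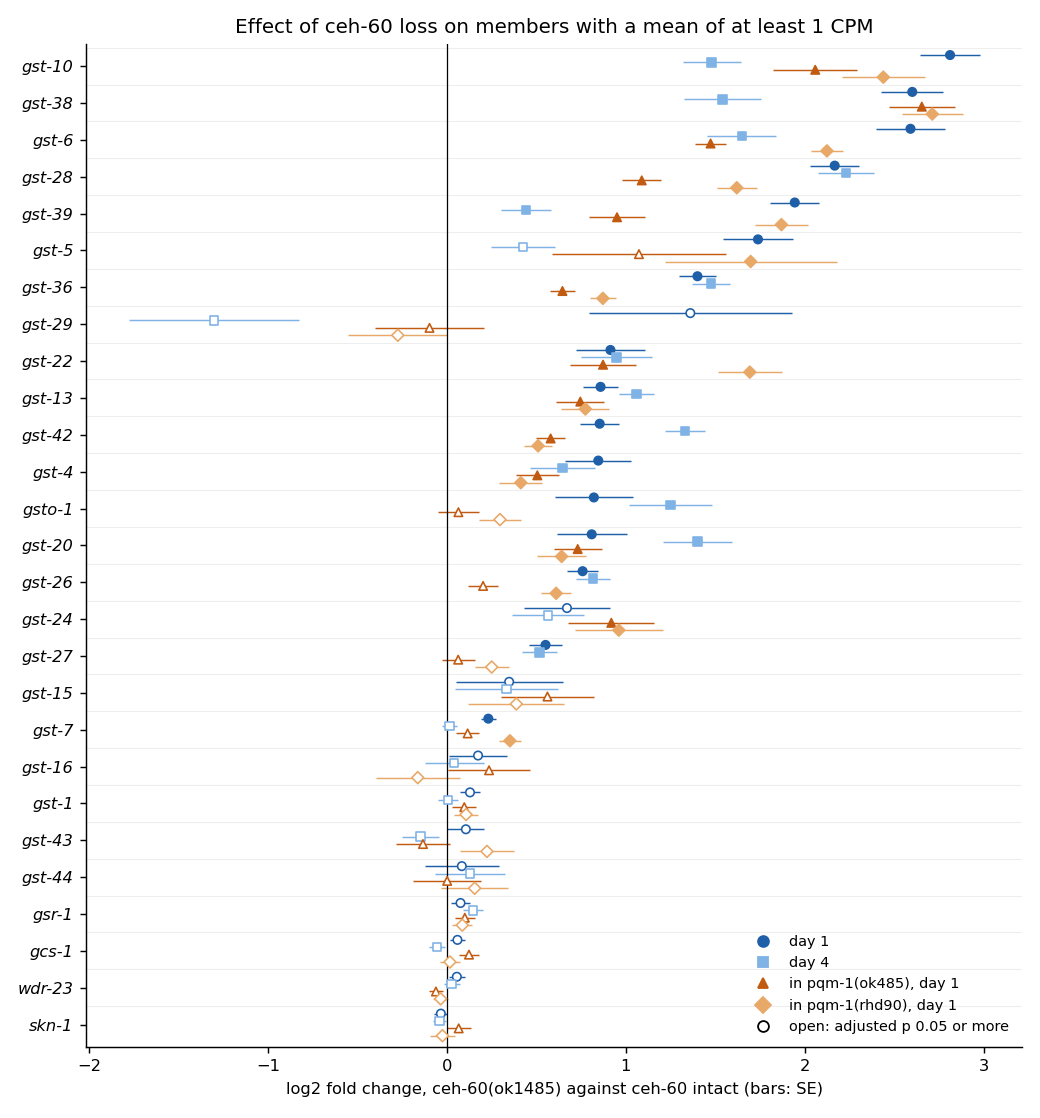
Log2 fold change of ceh-60(ok1485) against ceh-60 intact with its SE, for members that average at least 1 CPM, in 4 settings: day 1 (circles), day 4 (squares), with pqm-1(ok485) (triangles) and with pqm-1(rhd90) (diamonds); open symbols did not pass the test. From gst-10 and gst-38 at the top to skn-1 at the bottom, the members called higher in all 4 settings stand to the right, and skn-1, wdr-23, gcs-1, gsr-1 and gst-1 sit near 0 in each.

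The effect of ceh-60 loss with pqm-1(ok485) was compared with that in wild type by an interaction term over the 18 libraries of day 1. It was smaller for 6 of 33 members and larger for none, where 4.17% of all 13589 genes were called smaller and 0.265% larger (4.43% in all). Of all genes called, 5.98% were larger by edgeR and 19.9% by DESeq2. The differences were -0.73 ± 0.13 for gst-36 (edgeR adjusted p = 0.00616), -1.06 ± 0.20 for gst-28 (0.00824), -1.09 ± 0.21 for gst-6 (0.00839) and -0.97 ± 0.20 for gst-39 (0.0123). Their levels without ceh-60 were 36.5 ± 4.62 and 35.4 ± 0.54 CPM for gst-36, 15 ± 1.54 and 16 ± 1.97 CPM for gst-28, 24.1 ± 5.73 and 20.0 ± 1.19 CPM for gst-6, and 20.1 ± 1.18 and 12.3 ± 0.49 CPM for gst-39, in the ceh-60 mutant and the ok485 double mutant. With ceh-60 intact they were 13.6 ± 1.66 and 22.3 ± 1.48 CPM, 3.29 ± 0.74 and 7.45 ± 0.56 CPM, 3.93 ± 0.56 and 7.12 ± 0.45 CPM, and 5.13 ± 0.48 and 6.23 ± 0.70 CPM, in wild type and pqm-1(ok485). For gst-36, gst-28 and gst-6 the groups without ceh-60 were thus close and the groups with it differed. These levels were compared across the tables, where table and pqm-1 genotype cannot be told apart. In the interaction term each ceh-60 effect was taken within a table, so a constant difference between the tables cancels there but not in these levels.

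The calls of gst-26 and gsto-1 were the less stable of these 6. For gst-26 the difference was -0.53 ± 0.12 (edgeR adjusted p = 0.0231), lost without ceh-60 replicate 1 or 3 or ok485 double mutant replicate 1 or 3, with adjusted p up to 0.0756. For gsto-1 it was -0.73 ± 0.18 (edgeR adjusted p = 0.027), lost without wild type replicate 2, ceh-60 replicate 1 or ok485 double mutant replicate 3, with adjusted p up to 0.0926. With pqm-1(rhd90), the same test called 0 of 33 members by edgeR, where 0.272% of all genes were called, 0.0809% larger and 0.191% smaller. By this test 10 members had an unadjusted p under 0.05, and DESeq2 called 1, gst-36 (-0.54, adjusted p = 0.0226). The share of larger effects among all genes called was 29.7% by edgeR and 16.8% by DESeq2. Between the alleles, the difference in ceh-60 effect, a comparison added after the data had been seen, also called 0 of 33 by edgeR (0.345% of all genes, 0.315% larger in rhd90 and 0.03% smaller). By this test 7 had an unadjusted p under 0.05, and DESeq2 called 2, gst-6 (0.62, adjusted p = 0.0335) and gst-39 (0.89, adjusted p = 0.0184). These tests share control libraries.

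The pqm-1 single mutants were set beside wild type of day 1, across the tables. In pqm-1(ok485), 10 of 33 members were higher and 3 lower, where 26.7% of all genes were called higher and 20.9% lower (47.7% in all). In pqm-1(rhd90), 17 were higher and 0 lower, where 17.6% were higher and 10.5% lower (28.2% in all). Without gst-29, gst-33 and gst-35, 9 of 30 were higher with ok485 and 15 of 30 with rhd90. Tissue markers moved in the same comparisons. With ok485, 7 of 8 intestine, 5 of 5 epidermis, 2 of 4 muscle and 2 of 3 sperm markers tested were higher and 5 of 6 oocyte markers lower. With rhd90, 7 of 8 intestine and 2 of 5 epidermis markers were higher and 4 of 6 oocyte markers lower. With each allele, 2 of 4 neuron markers were higher and 1 was lower. Of 6 germline markers, 2 were lower with ok485 and 1 with rhd90. The summed epidermis level was 411.0 to 660.8 CPM in wild type, 1082 to 1269 CPM with ok485 and 658.5 to 1002 CPM with rhd90, where rol-6 was at 0, and the summed oocyte level was 8271 to 8751, 6100 to 7870 and 7002 to 7469 CPM. The part of these shifts in the result was not tested. Both comparisons use the same wild type libraries, and table and genotype cannot be told apart in them. For gst-28 the libraries held 4.09, 2.62 and 3.16 CPM in wild type, 6.80, 7.78 and 7.75 CPM with ok485, and 8.16, 8.37 and 6.61 CPM with rhd90, with log2 differences of 1.14 ± 0.15 (edgeR adjusted p = 6.44e-05) and 1.2 ± 0.15 (4.19e-05). For gst-42 they held 11.7, 8.97 and 9.82 CPM, 16.8, 16.2 and 15.6 CPM, and 21.3, 19.5 and 20.5 CPM, with differences of 0.64 ± 0.10 (edgeR adjusted p = 0.00028) and 0.98 ± 0.10 (7.95e-06). The wild type libraries of both genes lay below all 6 pqm-1 libraries.

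With ok485, gst-26 differed from wild type by 0.68 ± 0.09 (edgeR adjusted p = 5.23e-05), gst-27 by 0.76 ± 0.10 (5.37e-05) and gst-36 by 0.68 ± 0.10 (8.89e-05). With rhd90 the differences were 0.46 ± 0.09, 0.44 ± 0.10 and 0.63 ± 0.10. The gene gsto-1 was higher by 0.91 ± 0.13 (edgeR adjusted p = 9.1e-05) and 0.96 ± 0.13 (6.48e-05), and wdr-23 by 0.24 ± 0.05 (0.00138) and 0.26 ± 0.05 (0.00145). For skn-1 the differences were -0.13 ± 0.07 (edgeR adjusted p = 0.148) and -0.12 ± 0.08 (0.247), neither past the threshold. For gcs-1 they were -0.14 ± 0.07 and -0.05 ± 0.07, also not past it. For gst-4 they were 0.00 ± 0.14 (edgeR adjusted p = 0.98) and 0.40 ± 0.14 (0.0449), the latter lost without any wild type or pqm-1(rhd90) library, replicate 1 or 3 of the ok485 double mutant or replicate 3 of the rhd90 double mutant, with adjusted p up to 0.112. The 3 members lower with ok485 were gsr-1 (-0.17 ± 0.05), gst-7 (-0.15 ± 0.05) and gst-1 (-0.15 ± 0.06). Each of these 3 calls was lost without any of the wild type libraries, replicate 2 or 3 of pqm-1(ok485) or replicate 2 of pqm-1(rhd90), that of gst-1 also without replicate 1 of pqm-1(ok485), with adjusted p up to 0.533.

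The 2 pqm-1 alleles were compared within the second table. With ceh-60 intact, 3 of 33 members were higher in rhd90 than in ok485 and 1 was lower, where 1.67% of all genes were higher and 5.72% lower (7.39% in all). The higher ones were gst-38 (1.02 ± 0.20, edgeR adjusted p = 0.0116), gst-29 (1.15 ± 0.29, 0.0344) and gst-42 (0.31 ± 0.08, 0.0417), and the lower one was gst-27 (-0.35 ± 0.09, 0.0443). The libraries of gst-38 were at 2, 1.78 and 1.43 CPM in ok485 and 2.92, 4.40 and 3.63 CPM in rhd90, without overlap. Each of these 4 calls was lost when a library was left out, that of gst-38 without rhd90 replicate 3 (adjusted p = 0.0562), and the others, with adjusted p up to 0.15, without any of at least 5 libraries, among them replicates 2 and 3 of ok485 and replicates 1 and 3 of rhd90. Same-numbered libraries deviated together here, and with the number as a block 8 members were called. Of skn-1, wdr-23, gcs-1, gsr-1, gsto-1 and gst-4, none passed without the block. The 4 added ones were gst-1 (0.13, edgeR adjusted p = 0.0486), gst-4 (0.37, 0.0398), gst-5 (0.40, 0.0478) and gst-35 (0.99, 0.0164). Tissue markers differed as well: 2 of 3 sperm and 2 of 5 epidermis markers tested were lower in rhd90. No marker of the other tissues passed. The part of these shifts in the result was not tested.

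Between the double mutants, 8 of 33 members were higher in rhd90 than in ok485 and none was lower, where 7.89% of all genes were higher and 6.37% lower (14.3% in all). For gst-39 the libraries held 12.6, 11.7 and 12.4 CPM in the ok485 double mutant and 34.2, 26.9 and 29.9 CPM in the rhd90 double mutant, a log2 difference of 1.33 ± 0.14 (edgeR adjusted p = 0.000219). For gst-22 they held 12.8, 15.3 and 14.6 CPM against 42.5, 24.8 and 32.8 CPM, or 1.26 ± 0.17 (edgeR adjusted p = 0.00107). For gst-38 the difference was 1.08 ± 0.15 (edgeR adjusted p = 0.00107), and for gst-6 it was 0.51 ± 0.08 (0.00206). The groups of these 4 genes did not overlap. The calls of gst-7, gst-10 and gst-29 were each lost without any of 7 or more libraries, among them replicates 2 and 3 of the ok485 double mutant and replicates 1 and 3 of the rhd90 double mutant, with adjusted p up to 0.191. The 44 gst genes together held 842.9 ± 47.1 CPM in the ok485 double mutant and 1018 ± 96.3 CPM in the rhd90 double mutant, beside 661.6 ± 39.4 and 698.1 ± 19.6 CPM in the pqm-1 single mutants. In the rhd90 double mutant, 3 of 3 sperm markers tested were lower and 2 of 4 neuron markers higher. Of 8 intestine markers 1 was higher and 2 were lower. Of 6 germline, 4 muscle and 5 epidermis markers, 1 each was lower. The part of these shifts in the result was not tested.

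The position of the genes was compared with their change. Chromosome II holds 25 of the 44 gst genes and chromosome V holds 9. Of those on chromosome II, 22 lie in 3 runs, where each gene starts within 20 kb of the previous gene's end. In the run at II:4879885-4893573 (coordinates of the deposited tables, WormBase release 260), gst-6 and gst-7 rose on day 1 by 2.59 and 0.23, and gst-9 did not pass (0.52 ± 0.24). In the run of 9 genes at II:15163808-15185385, gst-28 and gst-39 rose by 2.17 and 1.94, while gst-26 and gst-27 rose by 0.76 and 0.55, and gst-29, gst-32 and gst-35 did not pass. In the run of 9 genes at II:13608154-13630887, gst-20 and gst-19 were the 2 of 6 tested genes that were called on day 1. Both of these calls were lost when 1 library was left out, as given above. Neighbours within a run thus differed in the size of their change. Of the genes with the largest folds on day 1, gst-10 at V:2561690-2564701, gst-38 at V:15915216-15916079, gst-5 at II:10950350-10951604 and gst-36 at X:9861646-9862960 lie outside these runs.

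Other genes of glutathione and thiol chemistry were called at about the share of all genes on day 1. Of 30 genes tested from a list of 34, 5 rose and none fell on day 1, and 8 rose and none fell on day 4, beside 16.1% of all genes higher at each age. With ok485 4 rose, beside 4.76% of all genes, and with rhd90 5 rose and 1 fell, beside 9.79% and 2.07%. The median log2 fold change of the list was -0.01 on day 1 and 0.04 on day 4. The glutathione peroxidase gene gpx-7 rose by 1.03 ± 0.16 on day 1 (edgeR adjusted p = 0.000376) and by 1.61 ± 0.18 on day 4 (2.11e-05), and gstk-1, a kappa-class transferase, rose by 0.67 ± 0.11 on day 1 (edgeR adjusted p = 0.000605). The glutathione synthetase gene gss-1 rose by 0.23 ± 0.04 with ok485 (edgeR adjusted p = 0.00349) and by 0.27 ± 0.04 with rhd90 (0.000891). From day 1 to day 4 in wild type, 3 of the list rose and 14 fell, where 28.4% of all genes rose and 26.3% fell.

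A list of 22 genes held some that act on SKN-1 and others, such as hlh-30 and daf-16, that act beside it. Of these, 5 rose and 2 fell on day 1, and 3 rose and 2 fell on day 4. Among all genes, 25.5% and 24.4% were called in either direction. These counts lie near the shares of all genes. The kinase gene sgk-1 rose by 0.52 ± 0.09 (edgeR adjusted p = 0.000832) and 0.69 ± 0.09 (7.82e-05), and hlh-30, which encodes a TFEB-type factor, rose by 0.25 ± 0.05 on day 1 (0.00198). The median of the list was -0.03 on day 1, as it was for all genes. Of 8 tested genes from a list of 9 other detoxification genes known to respond to SKN-1, 3 rose on day 1 and 3 on day 4, where 16.1% of all genes rose at each age. Among them alh-5, an aldehyde dehydrogenase gene, rose by 2.08 ± 0.20 (edgeR adjusted p = 5.49e-06) on day 1 and by 1.45 ± 0.19 (9.49e-05) on day 4, and nit-1 rose by 1.03 ± 0.17 on day 4 (0.000578). With a pqm-1 allele, all 9 were tested, of which 1 rose with ok485 and 2 with rhd90, beside 4.76% and 9.79% of all genes.

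Markers of intestine, a tissue in which many glutathione transferases are made, moved with the same groups. Of 8 markers, 6 rose on day 1, 7 on day 4, 5 with ok485 and 6 with rhd90, and none fell. Their summed level was 759.1 to 976.3 CPM in wild type and 1292 to 1877 CPM in the ceh-60 mutant on day 1, and 256.8 to 266.1 CPM and 519.1 to 562.1 CPM on day 4. It was 1400 to 1522 CPM in pqm-1(ok485) and 2011 to 2404 CPM in its double mutant, and 1186 to 1404 CPM and 1769 to 1984 CPM for rhd90. Their median log2 fold change on day 1 was 0.85, beside 0.73 for the members tested here, and no marker was at 0. The 4 muscle markers also rose on day 1, from a summed level of 818.6 to 1189 CPM to one of 1382 to 1909 CPM, and none of them passed in the other 3 settings. Of 6 oocyte markers none passed in any of the 4. On day 1, 2 of 4 epidermis markers tested rose, 2 of 6 germline and 2 of 5 early embryo markers tested fell, and none of 4 neuron or 2 sperm markers tested passed. The part of these shifts in the result was not tested.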

How the data were processed

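The authors deposited raw counts of reads per gene in 2 tables of 12 libraries, made per the file headers with featureCounts 1.5.2 on WormBase release 260, ignoring strand and leaving out reads that map to several places or overlap several genes. Reads were aligned with STAR 2.5.4 per the submitters' processing notes. Per the labels' protocols, Trizol-extracted RNA went into the TruSeq v2 kit, which does not mark strand. The growth protocol is given for the first table's samples only. Group and replicate number came from the titles. Nothing in the labels tells if replicates came from different cultures, and p-values therefore cover the spread between these libraries alone, which may be technical. No column of sample values was left unused (0).

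The deposited counts were tested in R 4.3.3 by edgeR 4.0.16 (filterByExpr with a minimum count of 10, TMM, quasi-likelihood F-test, Benjamini-Hochberg adjustment over all genes tested, threshold 0.05). There were 3 fits: the first table (13137 genes), the second (13324) and day 1 (13589), with biological coefficients of variation of 0.0838, 0.106 and 0.0972. SEs were derived from the F statistic. Within groups no library repeated another (chi-square per degree of freedom of at least 3.74). On counts simulated for the day 1 effect of ceh-60 loss, 50% of genes with a log2 change of 0.585 were recovered. Of genes with a log2 change of 1, 72% were recovered. Among all 12901 genes tested, changed ones included, 9 unchanged ones were called falsely. For the effect with pqm-1(ok485) the shares were 51% and 65% (9 false of 13096), and for the difference of that effect from the one in wild type they were 30% and 62% (6 false of 13285).

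The members, lists and tests were chosen with earlier results of these data known. In each comparison the called members averaging at least 1 CPM were ranked by p, and at most 4 per direction were described with values, besides skn-1, wdr-23, gcs-1, gsr-1, gsto-1 and gst-4, which were given throughout. Replicate numbers were checked as pairs from the correlation of same-numbered libraries' deviations from their group means. Every pair exceeded 0.1 for ceh-60 loss with pqm-1(ok485) (0.49, 0.45 and 0.17) and between the pqm-1 alleles (0.47, 0.39 and 0.12), so the number was used there as a block beside the main fit. The difference in ceh-60 effect between the alleles was a comparison added after the data had been seen. Alternatives were RLE scaling, DESeq2 1.42.0, no filter on low counts, fits on the compared groups only, a replicate block and leaving out each library. Counts without members that passed the filter through some groups only were added after the data had been seen. Marker lists covered intestine, oocyte, germline, sperm, muscle, epidermis, neuron and early embryo.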

Additional observations from a re-analysis of the deposited data

Results flagged for a closer look

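Effects of ceh-60 loss that differed between ages by a tested interaction term were those of gst-39 (-1.50 on the log2 scale, day 4 minus day 1), gst-10 (-1.33) and gst-5 (-1.31). Effects that differed between pqm-1(ok485) and wild type animals by the same kind of test were those of gst-6 (-1.09), gst-28 (-1.06), gst-39 (-0.97), gst-36 (-0.73), gsto-1 (-0.73) and gst-26 (-0.53), each smaller with ok485. Wild type and pqm-1(ok485) are in different tables. For the last 6 values each ceh-60 effect was taken within a table, so a constant difference between the tables cancels. A difference between the tables in the ceh-60 effect itself cannot be told apart from pqm-1 genotype.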

How the results depend on the processing

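Over 219 pairs of a member and a comparison, 3775 of 4023 alternative fits kept the direction and the side of the threshold, 225 fell short of it, 23 passed it newly and 0 reversed. Counts of called members stayed within 1.5 times the main value in 9 of 14 comparisons. The others were small counts. The age difference of the ceh-60 effect (3) gave 7 with DESeq2, 7 without the filter, 6 with the replicate block and 3 to 5 with a library left out. The pqm-1 alleles with ceh-60 intact (4) gave 8 with the block and 0 to 4 with a library left out, and the double mutants (8) gave 12 with the block and 5 to 10. The ceh-60 effect in rhd90 minus that in wild type (0) gave 1 with DESeq2, 1 without the filter, 1 with the block and 0 to 1. That in rhd90 minus that in ok485 (0) gave 2, 2, 2 and 0 to 1. Leaving out a library gave 14 to 19 for the day 1 effect of ceh-60 loss and 12 to 16 for that of day 4. Libraries whose loss moved a count past 1.5 times were, for the age difference, wild type day 4 replicate 3 and ceh-60 day 1 replicate 2; for the alleles, pqm-1(ok485) replicates 2 and 3, pqm-1(rhd90) replicates 1 to 3 and rhd90 double mutant replicate 3; for the double mutants, replicate 2 of each single mutant, replicates 2 and 3 of the ok485 double and 1 and 3 of the rhd90 double; for rhd90 minus wild type, wild type day 1 replicate 1 and ceh-60 day 1 replicate 2; and for rhd90 minus ok485, rhd90 double replicate 2. The cause was not tested. Elsewhere at least 1 number did not correlate over 0.1, though others could, as with 0.38, 0.38 and 0.01 for ceh-60 loss with pqm-1(rhd90). Whether same-numbered libraries belong together in those comparisons cannot be told from these values.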
